A study of Homo sapiens with 24 samples.

Results

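The 10 genes HSPA5, HSP90B1, CALR, PDIA4, DNAJB9, XBP1, ERN1, EDEM1, SDF2L1, and HERPUD1 belong to the unfolded protein response (UPR) of the endoplasmic reticulum (ER), and their levels were followed in SKBR3 cells driven into therapy-induced senescence (TIS). They were chosen by gene symbol from the 14493 genes of the deposited read-count table, and all 10 were present and passed the filter on low counts in each comparison. SKBR3 is an established human breast cancer cell line with amplified ERBB2 (HER2), so every group is the same single line. RNA-seq had been run on 24 libraries in 8 groups of 3 replicates: untreated cells at day 0, untreated cells at day 7, and 6 groups of drug-treated cells at day 7. The acetyl-CoA carboxylase (ACC) inhibitor ND-646 and the fatty acid synthase (FASN) inhibitor TVB-3166 were each given at 250 nmol/L, the Aurora A kinase inhibitor alisertib at 500 nmol/L, the DNA-damaging drugs doxorubicin and bleomycin at 10 nmol/L and 10 μmol/L, and the CDK4 and CDK6 inhibitor palbociclib (Palboclib in some labels) at 1 μmol/L. The labels note a refeed on day 3 for the drug-treated cells. They note none for the untreated day-7 cells. If these had none, drug and refeed cannot be told apart in comparisons of drug-treated with untreated cells. The labels do not say that replicates were separate cultures, so p-values measure the spread between these libraries, which may be technical.

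The ER folds secreted and membrane proteins with the help of chaperones and disulfide isomerases, and it returns proteins that fail to fold to the cytosol for destruction by the proteasome. When unfolded proteins accumulate, the membrane sensors IRE1α (encoded by ERN1), PERK (EIF2AK3), and ATF6 switch on the UPR. IRE1α splices the XBP1 mRNA into the form that encodes an active transcription factor, ATF6 is cut to release a transcription factor, and PERK slows translation and raises ATF4, while the chaperone BiP (HSPA5) holds the sensors inactive when it is free to bind them. Gene-level counts give the amount of a transcript and cannot tell spliced from unspliced XBP1 mRNA or show whether a sensor is active.

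Total counts ranged from 29405121 to 44316330 per library, and the counts of the 10 genes from 313 to 113958. The part of counting error in the spread between replicates was not tested. The 5 epithelial and line markers were all among the genes measured, with ERBB2 at 4938 to 8393 CPM. Of 8 markers of leukocytes, fibroblasts, and endothelium, 6 were not among the table's genes, COL1A1 was at 6.12 to 15.5 CPM, and VWF was at 0.0673 to 1.44 CPM. The library of ND-646 replicate 1 stood apart: relative to untreated day-0 cells its genes with transcripts under 1 kb had a median log2 difference of 0.43 and those over 5 kb of -0.28, whereas ND-646 replicates 2 and 3 had -0.13 and -0.14 for short transcripts and 0.18 and 0.21 for long ones. The ND-646 values of the 10 genes that changed their call, and the counts over gene lists, are therefore also given without it. For other named genes this is done for some values only. Counts are uncertain where genes share reads, because the use of strand in counting is not given in the sources used here: ERN1, EDEM1, and CALR overlap long non-coding RNAs of the opposite strand, HERPUD1 overlaps a pair on its own strand, and HSPA5 and XBP1 have processed pseudogenes, HSPA5P1 and XBP1P1.

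Relative to untreated day-0 cells, ERN1 and DNAJB9 were called higher in all 6 drug groups and EDEM1 in 5. The EDEM1 log2 fold-change in bleomycin (0.63) was similar to those in doxorubicin (0.60) and alisertib (0.61) but missed the threshold of edgeR's test (adjusted p = 0.0943). SDF2L1 was called lower in 5 groups (not in alisertib), and the abundant chaperones HSP90B1 and CALR passed the test in none of the 6. In bulk RNA, a change in some of the cells and a smaller change in all of them cannot be told apart. ERN1 carried the largest changes of the 10, with log2 fold-changes from 0.92 in alisertib to 2.52 in ND-646 TIS cells. The 10 genes did not move in one direction in any of the drug groups. Relative to untreated day-0 cells, edgeR's quasi-likelihood test (Benjamini-Hochberg adjusted p under 0.05) called 3 of 10 higher and 1 lower in ND-646 TIS cells, where 19.1% and 18.8% of all genes tested were called higher and lower. In TVB-3166 TIS cells 4 were higher and 1 lower (27.4% and 27.7% of all genes). In bleomycin TIS cells 3 were higher and 3 lower (24.1% and 25.3% of all genes), and in doxorubicin TIS cells 3 were higher and 2 lower (23.7% and 24.8%). In palbociclib TIS cells 3 were higher and 1 lower (26% and 27.2%), and in alisertib TIS cells 3 were higher and 1 lower (17.7% and 19.6%). These shares lay near those of all genes, so the counts of calls did not set the 10 genes apart, and the results below concern which of them moved.

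The promoters of the 10 genes were examined for the DNA elements through which the UPR acts on transcription, because the genes behaved differently from each other. The ER stress response element (ERSE, CCAAT and CCACG with 9 bases between them) is the element bound by ATF6 together with NF-Y, ERSE-II (ATTGG and CCACG with 1 base between them) is a shorter form of it, and the UPR element (UPRE, TGACGTGG) is bound by ATF6 and spliced XBP1. RefSeq promoter windows of 300 bases on GRCh38.p14 were matched by symbol for all 10 genes, with 12 windows in total, and were searched for exact matches on both strands. ERSE was found in 4 of the 10 genes, in a background of 27 of 35116 windows (0.0769%). ERSE-II was found in 2 of them, in a background of 19 windows (0.0541%), and UPRE in 0 of them, in a background of 256 windows (0.729%). The 10 genes were chosen as UPR genes and these are elements of the UPR, so the counts are no test of enrichment. They also count genes, some with more than 1 window, whereas the background counts single windows. The stretches with a match follow 5′ to 3′ on the strand of the gene, with the ERSE or ERSE-II match in capitals.
HSPA5, chr9:125241379-125241421, minus strand: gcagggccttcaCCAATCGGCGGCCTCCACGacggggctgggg
XBP1, chr22:28800591-28800633, minus strand: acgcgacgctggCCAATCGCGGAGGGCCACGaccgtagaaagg
CALR, chr19:12938372-12938414, plus strand: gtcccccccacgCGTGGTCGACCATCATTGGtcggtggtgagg
HSP90B1, chr12:103930204-103930351, plus strand: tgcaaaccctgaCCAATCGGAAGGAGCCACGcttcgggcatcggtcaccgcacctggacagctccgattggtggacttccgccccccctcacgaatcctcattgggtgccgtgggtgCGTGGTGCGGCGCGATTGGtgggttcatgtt
HERPUD1, chr16:56932013-56932047, plus strand: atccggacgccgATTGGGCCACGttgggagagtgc
SDF2L1, chr22:21642102-21642136, plus strand: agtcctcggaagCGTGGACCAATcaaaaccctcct

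The ERSE of HSPA5 lay at -66 to -48 relative to the start site and that of XBP1 at -52 to -34, both on the strand of the gene. CALR carried a match on the opposite strand at -225 to -207. HSP90B1 carried a pair of matches, one on its own strand at -194 to -176 and one on the opposite strand at -89 to -71. The ERSE-II match lay at -117 to -107 in HERPUD1 and, on the opposite strand, at -188 to -178 in SDF2L1. ERN1, EDEM1, DNAJB9, and PDIA4 held no exact match to these letters in their windows. Genes that rose in some drug group were found both with a match (HSPA5, XBP1) and without one (ERN1, EDEM1, DNAJB9), and genes that fell in some group also both with (SDF2L1, HERPUD1, XBP1, HSP90B1) and without (PDIA4). A match describes the sequence and is not evidence of binding, and the absence of one concerns only these letters in this window.

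**Figure D1:**
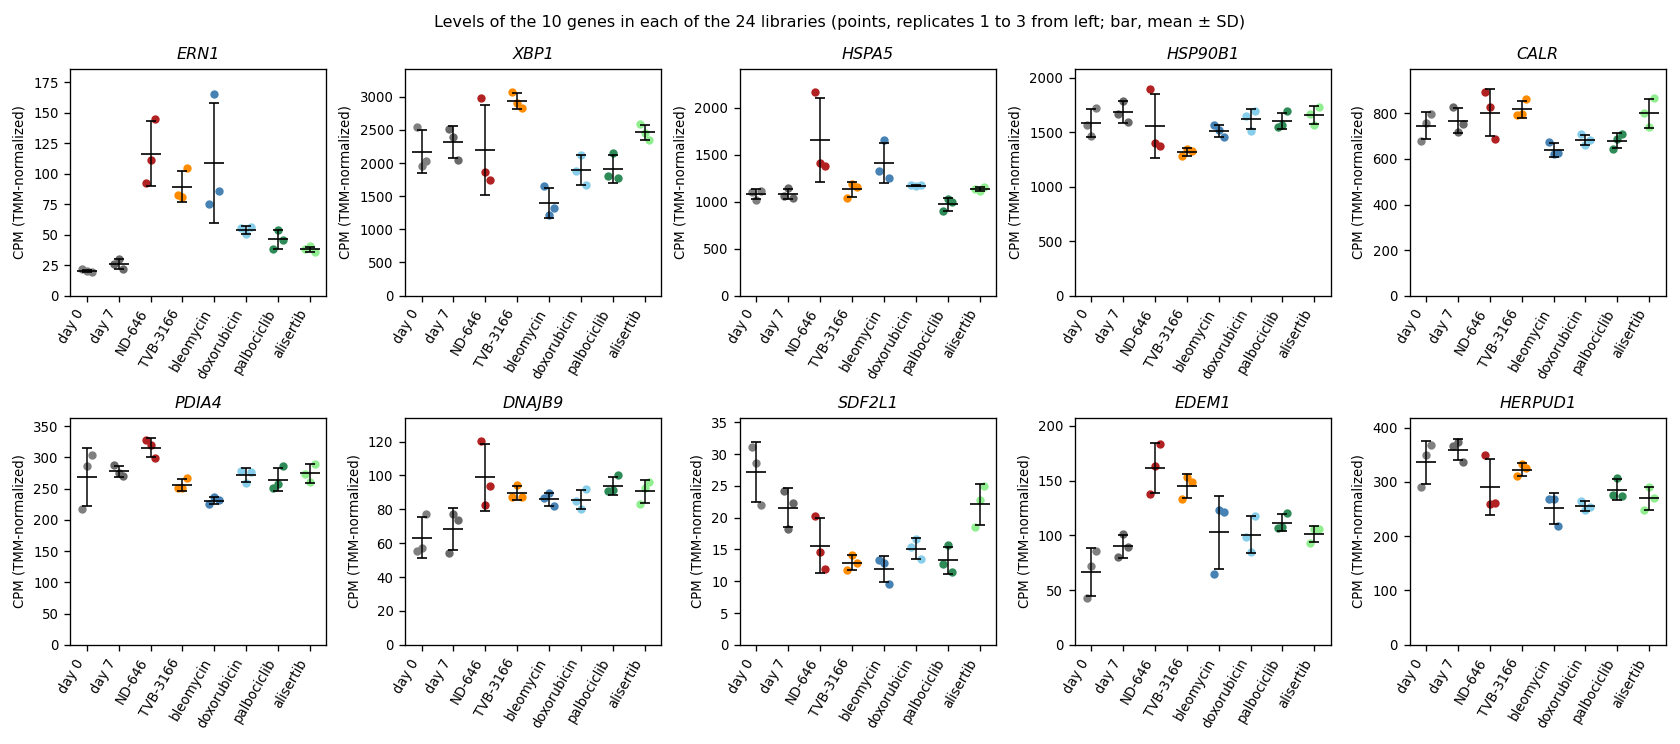
Levels of the 10 genes in CPM (vertical axis, TMM-normalized, from 0) in each of the 8 groups, with 1 point per library and a bar for the mean ± SD of 3 libraries. ERN1 lies at 19.3 to 21.4 CPM in untreated day-0 libraries and at 36.1 CPM or above in all drug-treated libraries, whereas HSP90B1, CALR, and PDIA4 change little between groups.

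Levels are given as CPM, read counts divided by the TMM-adjusted total of their library, for replicates 1, 2, and 3 in this order. Per kilobase of transcript, the scale on which levels can be compared between genes, the level in untreated day-0 cells was highest for XBP1, at 1213 CPM per kb, followed by HSP90B1 (569), CALR (392), HSPA5 (274), HERPUD1 (118), PDIA4 (97.1), SDF2L1 (33.0), DNAJB9 (26.2), EDEM1 (10.9), and ERN1 (2.55). The gene that changed most was thus the one with the lowest level. An edgeR quasi-likelihood test over all 8 groups called 9 of the 10 genes, beside 81.6% of 14078 genes. The exception was HSP90B1 (adjusted p = 0.143), and the lowest adjusted p was that of ERN1 (2.82e-09).

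ERN1 (NCBI Gene 2081, chr17:62116440-62208179 on GRCh37, minus strand) encodes the sensor IRE1α, a kinase and endoribonuclease of the ER membrane. Untreated day-0 libraries had 21.4, 19.8, and 19.3 CPM and untreated day-7 libraries 25.6, 30.1, and 21.6 CPM. ND-646 libraries had 92.4, 111, and 145 CPM and TVB-3166 libraries 82.6, 81.3, and 104 CPM. Every library of both lipogenesis inhibitors thus lay above every untreated library. Bleomycin libraries had 74.8, 165, and 85.9 CPM, doxorubicin libraries 55.2, 50.4, and 56.6 CPM, palbociclib libraries 38.6, 54.1, and 45.6 CPM, and alisertib libraries 38.0, 40.3, and 36.1 CPM. No drug-treated library overlapped an untreated one, and bleomycin replicate 2 was the highest of all 24.

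Relative to untreated day-0 cells, ERN1 rose 5.73-fold in ND-646 TIS cells (log2 fold-change 2.52, SE 0.20, adjusted p = 3.98e-05). The rise was 4.45-fold in TVB-3166 (2.15, SE 0.12, adjusted p = 3.65e-07) and 5.42-fold in bleomycin TIS cells (2.44, SE 0.27, adjusted p = 0.000136). It was smaller in doxorubicin TIS cells, at 2.70-fold (1.43, SE 0.10, adjusted p = 1.01e-05), in palbociclib, at 2.28-fold (1.19, SE 0.13, adjusted p = 3.75e-05), and in alisertib, at 1.89-fold (0.92, SE 0.10, adjusted p = 0.00017). In the untreated day-7 cells it was 1.29-fold and did not pass the test (0.36, SE 0.13, adjusted p = 0.139), although the libraries did not overlap. Relative to untreated day-7 cells ERN1 also rose in all 6 drug groups, by log2 fold-changes of 2.17 in ND-646, 1.80 in TVB-3166, 2.09 for bleomycin, 1.09 for doxorubicin, 0.85 for palbociclib, and 0.58 for alisertib TIS cells (adjusted p from 2.52e-06 to 0.0073). The comparisons with one reference share its libraries and are not independent of each other. Without ND-646 replicate 1 the log2 fold-change from day 0 was 2.66 in ND-646 TIS cells, and without bleomycin replicate 2 it was the lowest value of any replicate left out in bleomycin TIS cells, 1.99.

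The mean levels of ERN1 ordered the groups as untreated day 0 (20.1 ± 1.11 CPM, SD, n = 3), untreated day 7 (25.7 ± 4.25), alisertib (38.1 ± 2.11), palbociclib (46.1 ± 7.78), doxorubicin (54.0 ± 3.28), TVB-3166 (89.4 ± 13.0), bleomycin (109 ± 49.2), and ND-646 (116 ± 26.7). With all 24 libraries in one fit, the step from doxorubicin to TVB-3166 was the only one between neighbouring groups that passed the test (log2 difference 0.73, adjusted p = 0.0116). TVB-3166, bleomycin, and ND-646 TIS cells thus stood above the other 3 drug groups, without a resolved order among themselves.

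XBP1 (NCBI Gene 7494, chr22:29190543-29196585 on GRCh37, minus strand) encodes the transcription factor whose mRNA IRE1α splices. Its level differed in direction between drugs and did not follow ERN1. In untreated day-0 cells the 3 libraries had 2541, 1951, and 2025 CPM and untreated day-7 libraries 2512, 2396, and 2049.8 CPM. TVB-3166 libraries had 3075, 2907, and 2832 CPM, all above every untreated library, and bleomycin libraries 1651, 1214, and 1322 CPM, all below. ND-646 libraries had 2982, 1866, and 1741 CPM, with replicate 1 above and replicates 2 and 3 below every untreated library.

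Compared with untreated day-0 cells, XBP1 rose in TVB-3166 TIS cells (log2 fold-change 0.44, SE 0.13, adjusted p = 0.0149) and it also rose when compared with untreated day-7 cells (0.34, SE 0.10, adjusted p = 0.0125). The first of these calls was lost without untreated day-0 replicate 2 (0.37, adjusted p = 0.0647) and the second without untreated day-7 replicate 3 (0.26, adjusted p = 0.0760). The second was also lost with all 24 libraries in one fit (0.34, SE 0.17, adjusted p = 0.111). XBP1 fell in bleomycin TIS cells, with log2 fold-changes of -0.63 (SE 0.16, adjusted p = 0.00947) from day 0 and -0.72 (SE 0.14, adjusted p = 0.00289) from day 7. In ND-646 TIS cells the change from day 0 was 0.00 (SE 0.25), and -0.27 without replicate 1 (adjusted p = 0.155). From day 7 the ND-646 value was -0.09 (adjusted p = 0.786) with all libraries and -0.37 (adjusted p = 0.0139) without replicate 1, so that a single library decided the call. Doxorubicin libraries had 1881, 2122, and 1669 CPM, palbociclib libraries 1809.9, 2157, and 1778 CPM, and alisertib libraries 2586, 2452, and 2349 CPM. These 3 groups overlapped both untreated groups and did not pass edgeR's test, and DESeq2 called doxorubicin (-0.28, adjusted p = 0.033) and palbociclib (-0.27, adjusted p = 0.0224) lower than day 7.

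HSPA5 (NCBI Gene 3309, chr9:127997132-128003661 on GRCh37, minus strand) encodes BiP, the main Hsp70 chaperone of the ER and a classic marker of the UPR. Untreated day-0 libraries had 1104, 1015, and 1109 CPM and untreated day-7 libraries 1061, 1141, and 1033 CPM. ND-646 libraries had 2169, 1412, and 1380.3 CPM and bleomycin libraries 1325, 1649.6, and 1248 CPM. In both of these groups every library lay above every untreated library, and ND-646 replicate 1 was the highest of all 24. TVB-3166 libraries had 1039.8, 1186, and 1159.6 CPM, doxorubicin libraries 1171, 1160.2, and 1176 CPM, palbociclib libraries 895, 1024, and 998 CPM, and alisertib libraries 1128, 1117, and 1152 CPM. These 4 groups did not pass the test against either reference.

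In bleomycin TIS cells HSPA5 rose by a log2 fold-change of 0.39 from day 0 (SE 0.14, adjusted p = 0.0421) and of 0.40 from day 7 (SE 0.12, adjusted p = 0.0274). The first call was lost in 5 of the 6 fits that left out a replicate, with values of 0.26 to 0.48 over the 6, and the second in 3 of 6. In ND-646 TIS cells the log2 fold-change was 0.60 from day 0 (SE 0.21, adjusted p = 0.0527), which missed the threshold, and 0.60 from day 7 (SE 0.20, adjusted p = 0.0471). The day-7 call was lost in 4 of the 6 fits without a replicate (adjusted p = 0.0555 to 0.168). Without ND-646 replicate 1 both values were smaller and passed the test, at 0.37 (adjusted p = 0.0259) from day 0 and 0.36 (adjusted p = 0.00582) from day 7. The DESeq2 adjusted p of the day-0 comparison with all libraries was 0.0181. With all 24 libraries in one edgeR fit the ND-646 log2 fold-change from day 0 was 0.62 (adjusted p = 0.000588). It was 0.64 with the trend over transcript length removed, described below (adjusted p = 0.0359). Without a filter the ND-646 day-7 call was lost (0.59, adjusted p = 0.0601), as was the bleomycin day-0 call (0.38, adjusted p = 0.0588). Calls of HSPA5 in ND-646 and bleomycin TIS cells thus depended on the fit. The size of its change was well below that of ERN1 in the same cells.

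HSP90B1 (NCBI Gene 7184, chr12:104323885-104347709 on GRCh37, plus strand) encodes GRP94, the Hsp90 of the ER, and ranged from 1276 to 1894 CPM over the 24 libraries. TVB-3166 libraries had 1276, 1348, and 1329 CPM, lower than the 1666, 1789, and 1589 CPM of untreated day-7 and the 1563, 1466, and 1724 CPM of untreated day-0 libraries. None of the TVB-3166 libraries overlapped an untreated one. The fall passed the test against day 7 (log2 fold-change -0.35, SE 0.08, adjusted p = 0.00518), and the value against day 0 was -0.26 (adjusted p = 0.0682, and 0.0191 by DESeq2). In the other 5 drug groups the log2 fold-change from day 0 lay between -0.06 and 0.06 and did not pass the test. Without ND-646 replicate 1 the ND-646 value was -0.20 (adjusted p = 0.218) from day 0 and -0.29 from day 7, which passed the test (adjusted p = 0.0209). HSP90B1 overlaps UQCC6 on the opposite strand over 13169 bases, so reads of both could not be told apart if strand was not used.

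CALR (NCBI Gene 811, chr19:13049392-13055303 on GRCh37, plus strand) encodes calreticulin, a lectin chaperone of glycoproteins and a calcium store of the ER. It ranged from 619.9 to 892 CPM. It passed the test in none of the comparisons in edgeR, and its log2 fold-changes from day 0 lay between -0.22 in bleomycin and 0.14 in TVB-3166 TIS cells. The lowest levels were those of bleomycin libraries, 674, 619.9, and 627 CPM, which did not overlap the 681, 759, and 799 CPM of untreated day-0 or the 829, 720.5, and 754 CPM of untreated day-7 libraries. The bleomycin value against day 7 was -0.25 (adjusted p = 0.0573, and 0.0414 by DESeq2). With the replicate number as a block it was -0.25 with an adjusted p of 0.0228. That block assumes a pairing that the labels do not give, and same-numbered libraries of these groups correlated only weakly (0.107 to 0.142).

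PDIA4 (NCBI Gene 9601, chr7:148700154-148725754 on GRCh37, minus strand) encodes ERp72, a disulfide isomerase, and ranged from 217 to 328 CPM. It passed the test only in bleomycin TIS cells against untreated day-7 cells, with 225, 236, and 231 CPM against 288, 275, and 269.7 CPM (log2 fold-change -0.26, SE 0.08, adjusted p = 0.0283). That call was lost in 4 of the 6 fits without a replicate. Untreated day-0 libraries were spread more widely, at 217, 286, and 304 CPM, and no group passed the test against them.

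DNAJB9 (NCBI Gene 4189, chr7:108210311-108215294 on GRCh37, plus strand) encodes ERdj4, a J-domain cochaperone of BiP and a known target of spliced XBP1. It was the one chaperone gene among the 10 that rose in all 6 drug groups relative to untreated day-0 cells. The untreated day-0 libraries stood at 55.2, 57.1, and 77.0 CPM and the untreated day-7 libraries at 54.1, 77.3, and 73.9 CPM. ND-646 libraries had 121, 82.3, and 93.9 CPM, TVB-3166 libraries 87.4, 94.1, and 87.4 CPM, and bleomycin libraries 86.4, 89.6, and 81.9 CPM. Doxorubicin libraries had 84.9, 80.4, and 91.9 CPM, palbociclib libraries 90.7, 91.2, and 100.02 CPM, and alisertib libraries 82.9, 92.5, and 96.3 CPM. All 18 drug-treated libraries lay above all 6 untreated ones, and the drug groups overlapped each other.

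The log2 fold-changes of DNAJB9 from day 0 were 0.63 in ND-646 (SE 0.19, adjusted p = 0.0299), 0.51 in TVB-3166 (adjusted p = 0.00537), 0.45 in bleomycin (adjusted p = 0.021), 0.45 in doxorubicin (adjusted p = 0.0156), 0.57 in palbociclib (adjusted p = 0.00347), and 0.52 in alisertib TIS cells (adjusted p = 0.0115). Their narrow range contrasted with that of ERN1. Leaving out a replicate ended the call in 3 of 6 fits each for ND-646, bleomycin, and doxorubicin, with adjusted p-values of 0.0515 to 0.124, and in 1 for alisertib. DNAJB9 also rose against untreated day-7 cells in TVB-3166 (0.39), doxorubicin (0.35), palbociclib (0.47), and alisertib TIS cells (0.42), and the values in ND-646 (0.52, adjusted p = 0.0632) and bleomycin (0.34, adjusted p = 0.0556) missed the threshold. The day-7 call was lost without a replicate in 1 of 6 fits for TVB-3166, 3 for doxorubicin, and 4 for alisertib, and with all 24 libraries in one fit for doxorubicin (adjusted p = 0.078) and alisertib (adjusted p = 0.0762). The ND-646 values without replicate 1 were 0.48 from day 0 (adjusted p = 0.0238) and 0.35 from day 7 (adjusted p = 0.0525). The ND-646 day-7 value passed the test with all 24 libraries in one fit (0.53, adjusted p = 0.00319). With the trend over transcript length removed, described below, the day-7 values passed in ND-646 (0.51, adjusted p = 0.0263) and bleomycin (0.41, adjusted p = 0.0333). With the replicate number as a block the bleomycin value against day 7 was 0.36 (adjusted p = 0.0354).

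SDF2L1 (NCBI Gene 23753, chr22:21996591-21998588 on GRCh37, plus strand) encodes a small ER protein found in the BiP chaperone complex. It fell in 5 of the 6 drug groups, the opposite direction to ERN1, EDEM1, and DNAJB9. Untreated day-0 libraries had 31.1, 28.5, and 22.0 CPM and untreated day-7 libraries 24.2, 18.2, and 22.3 CPM. ND-646 libraries had 20.3, 14.7, and 11.9 CPM, TVB-3166 libraries 11.7, 14.2, and 12.9 CPM, and bleomycin libraries 13.3, 12.9, and 9.5 CPM. Doxorubicin libraries had 15.4, 16.6, and 13.5 CPM, palbociclib libraries 12.7, 15.7, and 11.5 CPM, and alisertib libraries 18.6, 22.7, and 25.0 CPM. The 15 libraries of the first 5 drugs lay below every untreated day-0 library, and those of alisertib overlapped both untreated groups.

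Relative to untreated day-0 cells SDF2L1 fell by 1.19 on the log2 scale in bleomycin (SE 0.18, adjusted p = 0.000615), by 1.07 in TVB-3166 (SE 0.15, adjusted p = 0.000115), and by 1.04 in palbociclib TIS cells (SE 0.16, adjusted p = 0.000318). It fell by 0.83 in doxorubicin (SE 0.14, adjusted p = 0.00121) and by 0.82 in ND-646 TIS cells (SE 0.22, adjusted p = 0.0195). In ND-646 the call was lost in 4 of the 6 fits without a replicate, and the log2 fold-change without ND-646 replicate 1 was -1.04 (adjusted p = 0.000881). The alisertib value was -0.30 (adjusted p = 0.14), similar to the -0.32 of untreated day-7 cells (adjusted p = 0.221). Against untreated day-7 cells the fall passed the test in TVB-3166 (-0.73), bleomycin (-0.85), doxorubicin (-0.49), and palbociclib TIS cells (-0.70), and with the trend over transcript length removed, described below, the doxorubicin value was -0.22 and lost its call (adjusted p = 0.136). The ND-646 value against day 7 was -0.48 (adjusted p = 0.119) with all libraries and -0.71 (adjusted p = 0.00309) without replicate 1. In the order of group means, the step from ND-646 to untreated day-7 cells was the only one between neighbours that passed the test (0.47, adjusted p = 0.0393).

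EDEM1 (NCBI Gene 9695, chr3:5229331-5261643 on GRCh37, plus strand) encodes a protein that marks misfolded glycoproteins for ER-associated degradation (ERAD) and is a known target of spliced XBP1. Levels were 42.5, 71.6, and 85.9 CPM in untreated day-0 libraries and, in untreated day-7 libraries, 80.1, 101, and 89.1 CPM. ND-646 libraries had 138, 164, and 184 CPM and TVB-3166 libraries 133, 153, and 149 CPM. The 6 libraries of the lipogenesis inhibitors were the highest of all 24. Bleomycin libraries had 64.4, 123, and 121 CPM, doxorubicin libraries 98.6, 84.7, and 118 CPM, palbociclib libraries 106, 108, and 121 CPM, and alisertib libraries 93.0, 106, and 106 CPM. Doxorubicin and bleomycin libraries overlapped both untreated groups, and palbociclib libraries overlapped neither.

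EDEM1 rose 2.41-fold from day 0 in ND-646 (log2 fold-change 1.27, SE 0.25, adjusted p = 0.00465) and 2.18-fold in TVB-3166 TIS cells (1.13, SE 0.20, adjusted p = 0.000672). It rose less in palbociclib (0.74, SE 0.20, adjusted p = 0.01), alisertib (0.61, SE 0.20, adjusted p = 0.0382), and doxorubicin TIS cells (0.60, SE 0.22, adjusted p = 0.0452). The doxorubicin and alisertib calls were each lost in 4 of 6 fits without a replicate. The bleomycin value was 0.63 with a wider error (SE 0.29, adjusted p = 0.0943), and it passed the test in DESeq2 (adjusted p = 0.0442) and with all 24 libraries in one fit (adjusted p = 0.0168), and that of untreated day-7 cells was 0.44 (SE 0.21, adjusted p = 0.23). Against untreated day-7 cells EDEM1 rose in ND-646 (0.84, adjusted p = 0.00423), TVB-3166 (0.69, adjusted p = 0.000136), and palbociclib TIS cells (0.32, adjusted p = 0.0169). The palbociclib call was lost in 3 of 6 fits without a replicate and with all 24 libraries in one fit (0.31, adjusted p = 0.267). Doxorubicin, bleomycin, and alisertib gave 0.18, 0.21, and 0.19, which did not pass the test, and with the replicate number as a block the alisertib value passed (0.19, adjusted p = 0.045). Without ND-646 replicate 1 the ND-646 values were 1.38 from day 0 and 0.94 from day 7.

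HERPUD1 (NCBI Gene 9709, chr16:56966054-56978776 on GRCh37, plus strand) encodes a ubiquitin-like membrane protein that assembles the ERAD complex. Unlike EDEM1, it rose in none of the drug groups. Untreated day-0 libraries had 291, 349, and 368 CPM and untreated day-7 libraries 366, 374, and 337 CPM. Bleomycin libraries had 268, 268, and 218 CPM, doxorubicin libraries 266, 248, and 254 CPM, and alisertib libraries 249, 291, and 270.0 CPM. All 9 of these libraries lay below every untreated library, alisertib replicate 2 by the smallest margin (291.2 against 291.3 CPM). ND-646 libraries had 349, 259, and 261 CPM, TVB-3166 libraries 310.3, 332, and 325 CPM, and palbociclib libraries 275, 308, and 274 CPM.

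HERPUD1 fell from day 0 in bleomycin (log2 fold-change -0.42, SE 0.13, adjusted p = 0.0255), doxorubicin (-0.38, SE 0.11, adjusted p = 0.0136), and alisertib TIS cells (-0.32, SE 0.11, adjusted p = 0.0446). The alisertib call was lost in 5 of 6 fits without a replicate and the bleomycin call in 3. From day 7 it fell in bleomycin (-0.50), doxorubicin (-0.46), palbociclib (-0.32), and alisertib TIS cells (-0.40), with adjusted p-values of 0.000737 to 0.00872. ND-646 and TVB-3166 TIS cells gave -0.32 and -0.15 against day 7 and did not pass the test with all libraries. Without ND-646 replicate 1 the ND-646 value was -0.48 (adjusted p = 0.000798) from day 7 and -0.38 (adjusted p = 0.0282) from day 0, both past the threshold.

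**Figure D2:**
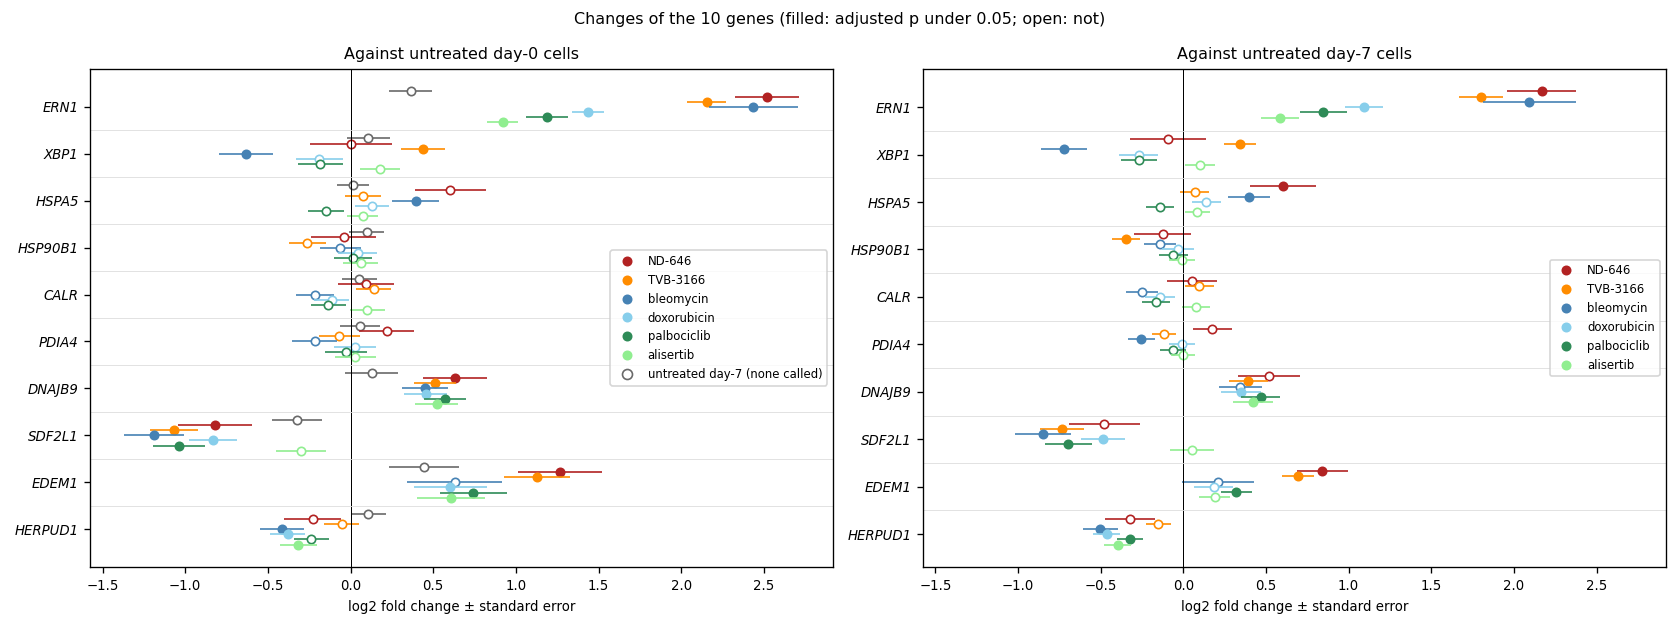
Log2 fold-changes with standard errors (horizontal axis) of the 10 genes (rows) in the 6 drug groups and untreated day-7 cells against untreated day-0 cells (left) and of the 6 drug groups against untreated day-7 cells (right). Filled points have an adjusted p under 0.05, and ERN1 reaches 2.52 from day 0, whereas HSP90B1, CALR, and PDIA4 stay between -0.35 and 0.22 in both panels.

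Untreated day-7 cells were included to account for 7 days in culture, and 0 of the 10 genes passed edgeR's quasi-likelihood test between them and untreated day-0 cells (0.389% of all genes were called higher and 0.198% lower). ERN1 alone had an unadjusted p under 0.05 there, and DESeq2 also called 0. Against untreated day-7 cells 3 of the 10 were higher and 0 lower in ND-646 TIS cells (17.2% and 17.1% of all genes), 4 higher and 2 lower in TVB-3166 (25.4% and 26.1%), and 2 higher and 4 lower in bleomycin (22.4% and 23.2%). In doxorubicin TIS cells 2 were higher and 2 lower (21.9% and 21.5%), in palbociclib 3 higher and 2 lower (22% and 22.9%), and in alisertib 2 higher and 1 lower (9.55% and 9.49%). ERN1 was the only gene called in all 6 of these comparisons. The median log2 fold-change of the 10 genes from day 0 was 0.16 in ND-646, 0.11 in TVB-3166, -0.14 for bleomycin, 0.03 for doxorubicin, -0.08 for palbociclib, and 0.09 for alisertib TIS cells, beside medians of all genes tested between -0.01 and 0.02.

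ACC and FASN act at successive steps of fatty acid synthesis, and both inhibitors were given at the same dose for the same time. Between TVB-3166 and ND-646 TIS cells 0 of the 10 genes passed edgeR's quasi-likelihood test, where 0.52% of all genes were called higher and 0.198% lower. At an unadjusted p under 0.05 there were 2, HSPA5 and PDIA4, and DESeq2 called 0. The log2 differences were -0.54 for HSPA5 (SE 0.20), -0.29 for PDIA4 (SE 0.11), 0.43 for XBP1 (SE 0.22), and -0.37 for ERN1 (SE 0.19), each negative value meaning a lower level in TVB-3166 TIS cells. Without ND-646 replicate 1, 3 genes passed: XBP1 was higher in TVB-3166 TIS cells (0.71, adjusted p = 0.00185), as was HERPUD1 (0.32, adjusted p = 0.0274), and ERN1 was lower (-0.51, adjusted p = 0.0359). The share of all genes called in that fit is not given here. The shares above belong to the fit with all libraries, so these calls cannot be set beside them. The errors with all libraries do not show that both inhibitors acted alike on these genes.

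The study's own rule for a call was a raw p under 0.05 together with a change of 2-fold or more, which kept the larger changes. By that rule, against untreated day-0 cells, 2 of the 10 were higher and 0 lower with ND-646 (11.4% and 9.29% of all genes) and 2 higher and 1 lower with TVB-3166 (10.9% and 6.75%). From the same reference 1 of the 10 was higher and 1 lower with bleomycin (11.5% and 7.3% of all genes) and 1 higher and 0 lower with doxorubicin (10% and 2.9%), while 1 of the 10 was higher and 1 lower with palbociclib (10.5% and 6.15% of all genes) and 0 higher and 0 lower with alisertib (6.47% and 1.44%). ERN1 and EDEM1 were the genes counted as higher, and SDF2L1 was the gene counted as lower. With day 7 as the reference 1 of the 10 (ERN1) was higher and 0 lower with ND-646 (8.74% and 8.62% of all genes) and 1 higher and 0 lower with TVB-3166 (7.24% and 6.14%). For the next pair of drugs 1 of the 10 was higher and 0 lower with bleomycin (8.49% and 5.65% of all genes) and 1 higher and 0 lower with doxorubicin (7% and 1.76%), and for the last pair 0 of the 10 were higher and 0 lower with palbociclib (6.51% and 4.71% of all genes) and 0 higher and 0 lower with alisertib (2.54% and 0.732%). Of the 10 genes, 0 were higher and 0 lower between the untreated groups (1.66% and 0.33%), and 0 higher and 0 lower between the lipogenesis inhibitors (2.13% and 1.01%).

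Transcript length moved with the changes. Over 13415 genes with a known length, of 14078, the median log2 difference from day 0 was negative for transcripts under 1 kb and positive for those over 5 kb in TVB-3166 (-0.14 and 0.07), bleomycin (-0.21 and 0.17), doxorubicin (-0.37 and 0.19), palbociclib (-0.26 and 0.13), and alisertib TIS cells (-0.20 and 0.08). In ND-646 TIS cells it was 0.08 and 0.02, where replicate 1 differed in sign from replicates 2 and 3. ERN1 (7895 bases) and EDEM1 (6113 bases) have the longest transcripts of the 10 and SDF2L1 (825 bases) the shortest. With the length trend removed, an alternative chosen after seeing the data, ERN1 kept its call in all 6 drug groups, with log2 fold-changes from day 0 of 2.47 in ND-646, 2.06 in TVB-3166, 2.24 for bleomycin, 1.22 for doxorubicin, 1.04 for palbociclib, and 0.83 for alisertib TIS cells. SDF2L1 kept its calls with -0.83, -0.90, -0.94, -0.47, and -0.75 in ND-646, TVB-3166, bleomycin, doxorubicin, and palbociclib TIS cells from day 0. EDEM1 kept its call in ND-646 (1.24), TVB-3166 (1.05), and palbociclib (0.62) and lost it in doxorubicin (0.45, adjusted p = 0.117) and alisertib TIS cells (0.53, adjusted p = 0.067). DNAJB9 (2409 bases), of middle length, gave 0.53 to 0.64 and kept its call in all 6 groups.

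**Figure D3:**
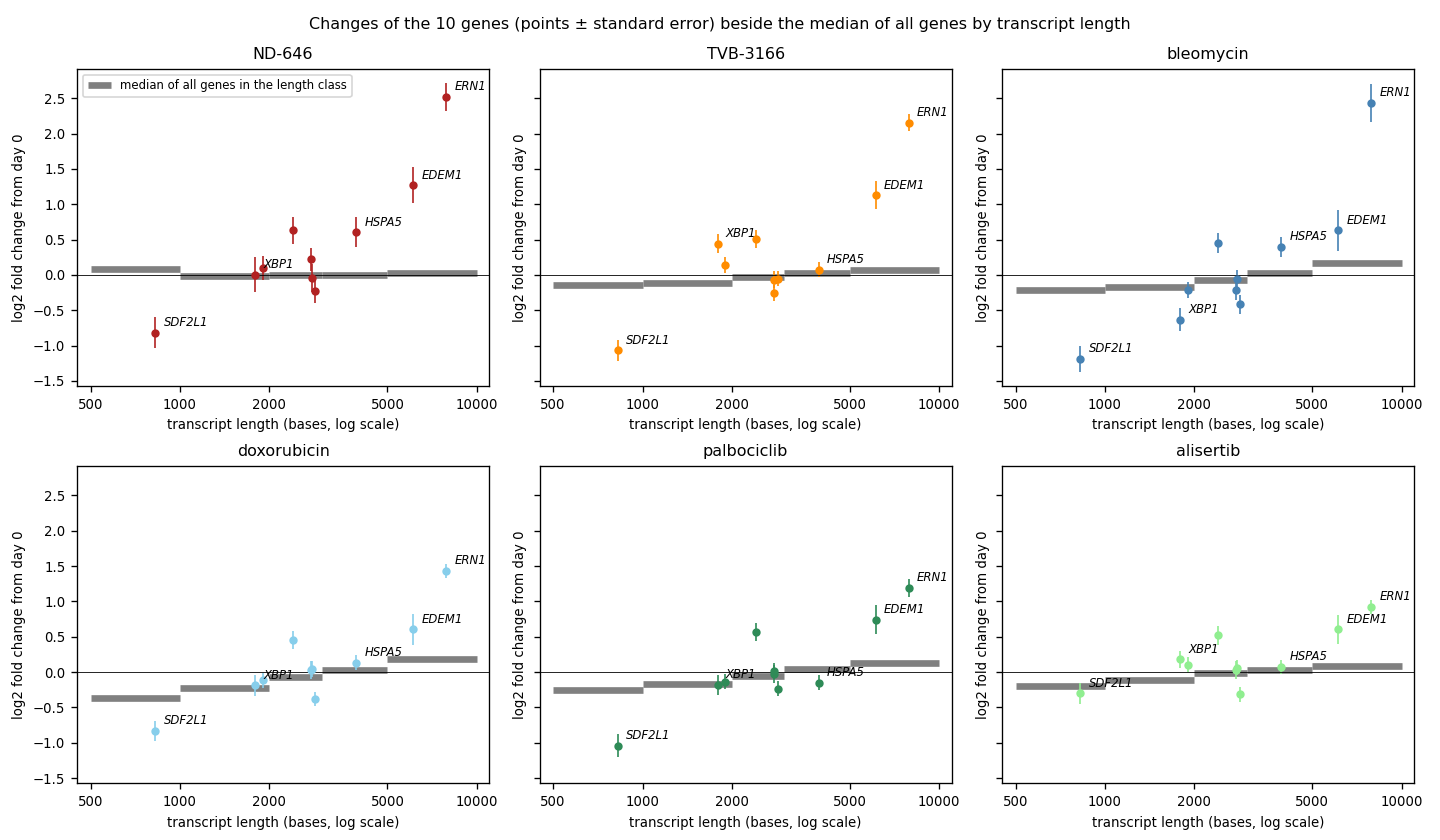
Log2 fold-change from untreated day-0 cells (vertical axis) of the 10 genes against transcript length in bases (horizontal axis, log scale) in each drug group, with standard errors, and with grey bars for the median of all genes in 5 length classes. The grey bars run from -0.37 to 0.19 in doxorubicin TIS cells, whereas ERN1 lies above them in all 6 groups, at 0.92 to 2.52.

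The other genes of the UPR and of ER protein handling were described from 6 lists with 75 genes besides the 10, of which 74 were tested, since DERL3 was not among the table's genes. Their counts are to be read beside the shares of all genes called from day 0, which ranged from 17.7% in alisertib to 27.4% in TVB-3166 TIS cells for higher and from 18.8% in ND-646 to 27.7% in TVB-3166 TIS cells for lower levels. In ND-646 without replicate 1 these shares were 27.1% and 27.8%. The list of PERK and ATF4 targets had the highest medians. Of its 9 genes, 9 rose in ND-646, 9 in TVB-3166, 9 for bleomycin, 6 for doxorubicin, 6 for palbociclib, and 5 for alisertib TIS cells relative to day 0, and 0 fell, with medians of 2.25, 1.76, 1.94, 0.99, 1.04, and 0.60. DDIT4, an inhibitor of mTORC1 signalling, changed on the log2 scale by 3.00 in ND-646 and by 2.60 in TVB-3166. CHAC1, which degrades glutathione, gave 2.69 and 2.45, and the stress protein NUPR1 gave 2.54 and 2.60. Without ND-646 replicate 1 the ND-646 values were 3.07 for DDIT4, 2.76 for CHAC1, and 2.11 for NUPR1. Against untreated day-7 cells 9, 9, 7, 2, 4, and 3 of the 9 rose in the same order of drugs, and 1 fell in doxorubicin TIS cells. Of all genes, 17.2%, 25.4%, 22.4%, 21.9%, 22%, and 9.55% were called higher in these comparisons, and 21.5% lower in doxorubicin TIS cells. In ND-646 without replicate 1 all 9 rose against both references. The list is named for PERK and ATF4, but higher levels of its transcripts do not show that PERK was active, which was not tested.

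Among the other 7 sensors and transcription factors, 4 rose in ND-646, 5 in TVB-3166, 3 for bleomycin, 4 for doxorubicin, 3 for palbociclib, and 2 for alisertib TIS cells, and 1 fell in bleomycin TIS cells. In ND-646 5 rose without replicate 1. DDIT3, which encodes the transcription factor CHOP, was at 4.23 ± 1.03 CPM in untreated day-0 cells and 52.3 ± 8.30 CPM in ND-646 TIS cells (SD, n = 3). Its log2 fold-changes were 3.61 in ND-646, 3.23 in TVB-3166, 2.86 for bleomycin, 1.97 for doxorubicin, 1.70 for palbociclib, and 1.87 for alisertib TIS cells, and all 6 passed the test. ATF4 also rose in all 6 groups, from 0.44 in doxorubicin to 1.75 in ND-646 TIS cells, and was the only gene of the lists that rose in untreated day-7 cells (0.65). Without replicate 1 the ND-646 values from day 0 were 1.42 for ATF4 and 3.49 for DDIT3. EIF2AK3, which encodes PERK, rose in ND-646 (1.24), TVB-3166 (0.90), and doxorubicin TIS cells (0.50). ATF6, named here after its values were seen, rose in 5 groups, with 1.11 (ND-646) and 0.82 (TVB-3166), and gave 0.06 in alisertib TIS cells.

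The 13 other ER chaperones and cochaperones moved in both directions. In TVB-3166 TIS cells 3 rose and 5 fell (median -0.25), in bleomycin 1 rose and 3 fell (median -0.03), and in palbociclib 2 rose and 4 fell (median -0.12). In ND-646 TIS cells 2 rose and 1 fell (median -0.03), in doxorubicin 1 rose and 3 fell (median 0.04), and in alisertib 1 rose and 2 fell (median -0.06). With replicate 1 left out, 3 rose and 4 fell in ND-646 (median -0.01). CRELD2, an ER stress-inducible protein secreted by cells, fell in all 6 groups, from 103 ± 7.91 CPM in untreated day-0 cells to 33.6 ± 2.95 CPM in bleomycin TIS cells (log2 fold-change -1.61), with -1.05 for ND-646 and -0.93 for TVB-3166. DNAJC10, a disulfide reductase with a J domain, rose in ND-646 (0.95) and TVB-3166 TIS cells (0.53). FKBP11, a prolyl isomerase, rose in palbociclib TIS cells (1.38) from a level of 0.847 ± 0.392 CPM, the lowest of the list.

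Of the 13 other genes of disulfide formation, 2 rose and 0 fell in ND-646, 3 rose and 5 fell in TVB-3166, and 2 rose and 4 fell in bleomycin TIS cells. In doxorubicin 2 rose and 2 fell, in palbociclib 2 rose and 3 fell, and in alisertib 2 rose and 2 fell, and the medians over the 6 groups lay between -0.24 and -0.01. In ND-646 3 rose and 2 fell without replicate 1. The oxidases ERO1A and ERO1B pass electrons from disulfide isomerases to oxygen. ERO1A rose in all 6 groups, by log2 fold-changes of 0.38 in alisertib to 1.26 in ND-646 TIS cells, and ERO1B rose in 5, with 0.96 in palbociclib TIS cells, and missed the threshold in ND-646 with all libraries (0.66, adjusted p = 0.052) but not without replicate 1 (0.84, adjusted p = 0.00286). PRDX4, the ER peroxiredoxin, fell by 0.93 on the log2 scale in TVB-3166 TIS cells. In ND-646 TIS cells it was not called with all libraries, and without replicate 1 its log2 fold-change was -1.10 (edgeR adjusted p = 5.98e-05).

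Of the 15 other ERAD genes tested, 4 rose and 2 fell in ND-646, 7 rose and 4 fell in TVB-3166, and 3 rose and 4 fell in bleomycin TIS cells. In doxorubicin 5 rose and 2 fell, in palbociclib 6 rose and 3 fell, and in alisertib 2 rose and 1 fell. In ND-646 7 rose and 4 fell without replicate 1. SYVN1, the ubiquitin ligase of the ERAD complex, rose in all 6 groups, from 84.7 ± 7.09 CPM in untreated day-0 cells to 163 ± 21.7 CPM in ND-646 TIS cells (0.93), with 0.76 in TVB-3166 and 0.34 to 0.46 in the other 4 groups. Its partner SEL1L rose in ND-646 (0.85), TVB-3166 (0.48), bleomycin (0.71), and doxorubicin TIS cells (0.30). UBE2G2, a ubiquitin-conjugating enzyme of ERAD, fell in ND-646 (-0.80), TVB-3166 (-0.41), and bleomycin TIS cells (-0.63). Its ND-646 call was lost in 2 of 6 fits without a replicate (adjusted p = 0.0614 and 0.0701). Without ND-646 replicate 1 the value was -0.60 (adjusted p = 0.00258).

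The 17 genes of translocation into the ER, which include the Sec61 channel, the signal peptidase, and the translocon-associated proteins, were called lower from day 0 in 10 to 12 cases in 5 drug groups and in 3 in ND-646. In TVB-3166 and bleomycin TIS cells 12 fell and 1 rose in each, with medians of -0.39 and -0.52. In doxorubicin 11 fell and 1 rose (median -0.32), in palbociclib 10 fell and 1 rose (median -0.39), in alisertib 10 fell and 0 rose (median -0.34), and in ND-646 3 fell and 1 rose (median -0.13), or 8 fell and 1 rose without replicate 1 (median -0.31). In untreated day-7 cells the median was already -0.26. SEC61B, a channel subunit, fell by 0.91 in bleomycin, SRPRB, a subunit of the signal recognition particle receptor, by 1.06 in bleomycin, and SEC11C, a signal peptidase subunit, by 1.38 in palbociclib TIS cells on the log2 scale. In ND-646 without replicate 1 the log2 fold-changes from day 0 were -0.74 for SEC61B, -0.74 for SRPRB, and -0.85 for SEC11C, all called. The part of transcript length in these counts was not tested. With the length trend removed, SEC61B gave -0.65 and SRPRB -1.001 in bleomycin and SEC11C -1.09 in palbociclib TIS cells, all still called. Against untreated day-7 cells the number that fell was 0 in ND-646, 6 in TVB-3166, 6 for bleomycin, 2 for doxorubicin, 6 for palbociclib, and 2 for alisertib TIS cells, and 4 in ND-646 without replicate 1, with medians between -0.18 and 0.14 over the 6 groups with all libraries. Of all genes, 17.1%, 26.1%, 23.2%, 21.5%, 22.9%, and 9.49% were called lower in these 6 comparisons, in the same order of drugs. In ND-646 without replicate 1 the share was 28.3%.

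**Figure D4:**
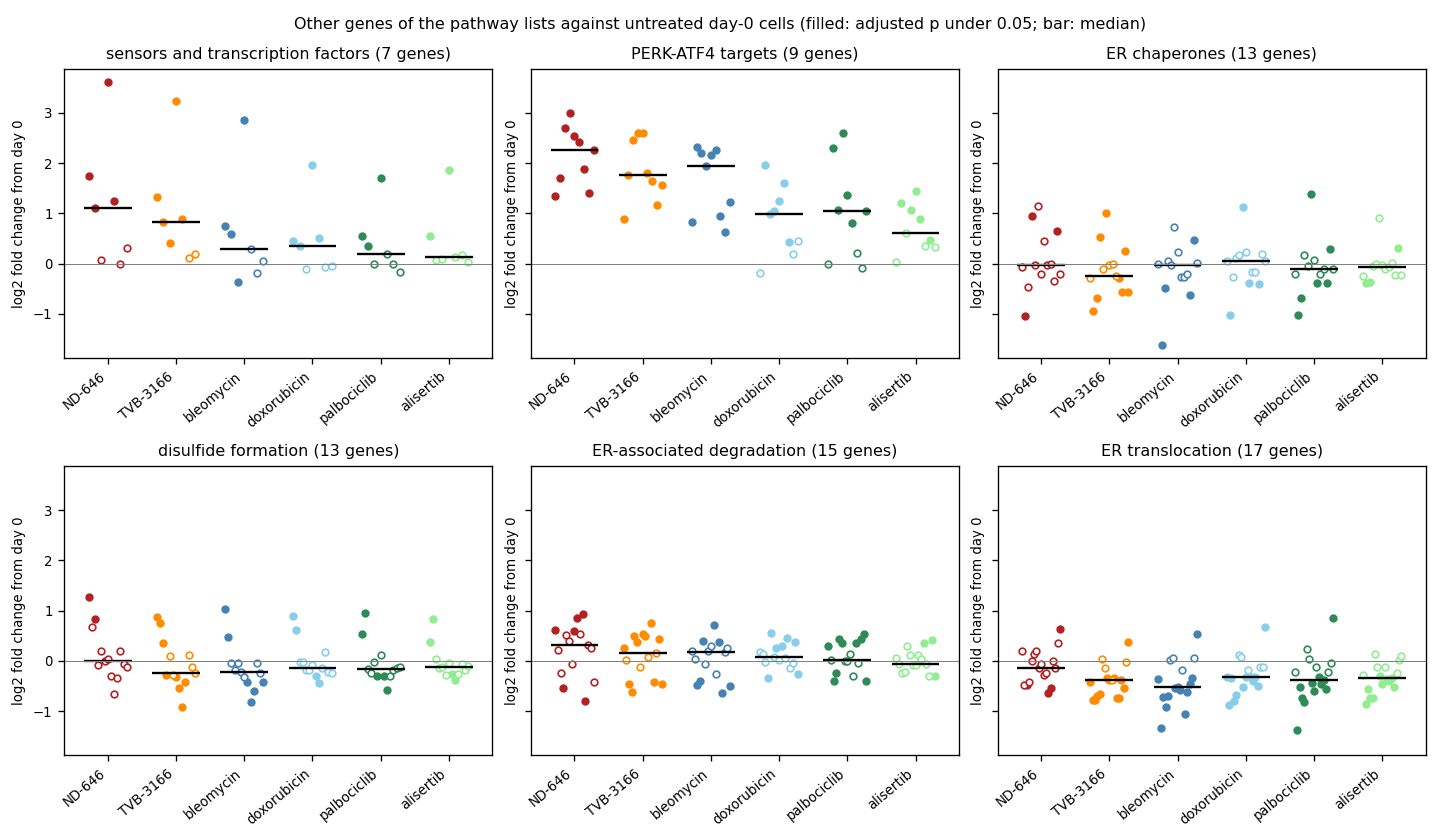
Log2 fold-changes from untreated day-0 cells (vertical axis) of the genes of the 6 lists other than the 10 genes, 1 panel per list, with 1 point per gene for each drug group and a bar for the median. Filled points have an adjusted p under 0.05. All filled points of PERK-ATF4 targets lie above 0, and the translocation medians run from -0.52 to -0.13.

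Over the 24 libraries the 45 pairs among the 10 genes had Pearson correlations of log2 CPM from -0.75 between ERN1 and SDF2L1 to 0.73 between CALR and XBP1, with a median of 0.19, and 28 pairs were positive and 17 negative. ERN1 and EDEM1 gave 0.73, DNAJB9 and EDEM1 0.69, CALR and PDIA4 0.63, and EDEM1 and SDF2L1 -0.63. These values are descriptions, since libraries of a group share their treatment and all share normalization. The genes whose pattern was most like that of ERN1 were KHNYN (0.967), CPD (0.967), TMED7-TICAM2 (0.965), CNST (0.963), and RAB11FIP1 (0.961). Those most like HSPA5 were ZNF768 (0.905), TIMP1 (0.890), LEMD2 (0.886), KLHDC8B (0.885), and PIR (0.885). Those most like XBP1 were CREB3L4 (0.913), SRARP (0.899), OTOR (0.893), RABEP2 (0.873), and JPT2 (0.872). Thus, none of the 10 genes was among the 5 closest to ERN1, XBP1, or HSPA5.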

How the data were processed

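RNA-seq reads of 24 SKBR3 libraries (8 groups of 3) were aligned by the authors to GRCh37 with HISAT2 and assembled with StringTie, and the authors deposited raw, whole-number counts of reads for each gene. The library kit is a stranded kit for total RNA in the methods and an mRNA kit in the labels, and the counting settings are not given in the sources used here. The lowest count in the table is 1, so a gene with 0 reads in any library could not be tested. Columns with fold-changes or p-values were not used.

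The quasi-likelihood test of edgeR 4.0.16 (R 4.3.3, 2-sided) was applied to the counts. Low counts were removed by filterByExpr, libraries were scaled by TMM, and each fit held the 6 libraries of its comparison. Benjamini-Hochberg adjusted p-values were taken over all genes tested, and a call is an adjusted p under 0.05. CPM used TMM factors of all 24 libraries, and log2 CPM a prior count of 2. There were 14 comparisons: 7 with untreated day-0 cells, 6 with untreated day-7 cells, and TVB-3166 with ND-646. Levels were ordered with all 24 libraries in one fit.

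The 10 genes and the lists were chosen with earlier results of these data known. Named besides the 10 are up to 3 genes of each list with the largest change from day 0 in any drug group, an adjusted p under 0.05, and no overlap between libraries, and the 5 genes most correlated with HSPA5, XBP1, and ERN1. Transcript lengths are of MANE Select transcripts (Ensembl canonical for XBP1), and promoter sequences are from RefSeq.

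Alternatives were DESeq2 1.42.0, RLE size factors, testing all genes, keeping genes with 10 or more counts throughout, fitting the 24 libraries together, a fold-change of at least 2 with a raw p under 0.05, the replicate number as a block, leaving out each replicate, and, chosen after seeing the data, the length trend removed. The labels do not say what a replicate number marks. Deviations of same-numbered libraries had correlations over 0.1 in all 3 pairs in bleomycin against day 7 (0.107 to 0.142), alisertib against day 7 (0.105 to 0.218), and TVB-3166 against ND-646 (0.213 to 0.380), and there the blocked value is given where it changed a call. The cut-off of 0.1 was a choice, and libraries with different numbers were not compared. The check therefore cannot show that these libraries were paired. Tested on simulated counts of ND-646 against day 0, edgeR recovered 149 of 197 changed genes with 14 false calls among 13331 genes. DESeq2 recovered 164 of 200 with 42 false calls among 13604 genes. The simulation changed 200 genes, took its spread from edgeR's estimates, and held no trend over transcript length, unlike the data. Far more genes were called in the data, so the share of false calls does not carry over and does not rank the tools. Values that passed by DESeq2 alone were not counted as calls.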

Additional observations from a re-analysis of the deposited data

How the results depend on the processing

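Apart from the rule of a 2-fold change, ERN1 kept its direction and call against untreated day-0 cells in all 6 drug groups under every alternative run, and against untreated day-7 cells lost it once, in alisertib TIS cells with all 24 libraries in one fit (0.57, adjusted p = 0.111). By the 2-fold rule ERN1 was not called in alisertib TIS cells against either reference, nor in palbociclib against day 7. Of 2054 alternative values for single genes, 1886 kept direction and call, 74 lost and 47 gained a call, and 47 changed sign, of which 0 were called in either fit. Requiring a fold-change of at least 2 with a raw p under 0.05 left fewer of the 10 genes called: from day 0, 3 in TVB-3166, 2 each in ND-646, bleomycin, and palbociclib, 0 in alisertib, and 1 in doxorubicin, and from day 7, 1 each in ND-646, TVB-3166, bleomycin, and doxorubicin and 0 in both others. All 24 libraries in one fit gave 6 calls in ND-646 against day 7, 1 in alisertib against day 7, and 1 between TVB-3166 and ND-646 (HSPA5, -0.55). Removing the length trend gave 5 calls in ND-646 against day 7. The shares of all genes called in these alternative fits are not given here.

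With the replicate number as a block, 1 gene was called between untreated day-7 and day-0 cells (EDEM1, 0.50, adjusted p = 0.0445), although these numbers are not known to pair the libraries, and HSPA5 in ND-646 against day 7 lost its call (0.58, adjusted p = 0.0554). In the comparisons taken as paired, where the pairing is not known either, the block gave CALR and DNAJB9 in bleomycin and EDEM1 in alisertib against day 7 as further calls and ended none.

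Leaving out a replicate gave 2 to 6 calls in ND-646, 3 to 6 in bleomycin, 3 to 5 in doxorubicin, and 1 to 5 in alisertib against day 0, 2 to 7 in ND-646 against day 7, and 0 to 3 between TVB-3166 and ND-646. The highest values of the last pair came without ND-646 replicate 1, and the lowest in alisertib without alisertib replicate 3. In ND-646 without replicate 1, 27.1% and 27.8% of all genes were called higher and lower against day 0. Against day 7 these shares were 26.7% and 28.3%. The shares of the other fits are not given here, so their counts have no background.

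Signs changed only in values near 0. XBP1 in ND-646 against day 0 gave -0.013 with DESeq2, -0.013 without a filter, and -0.030 with the block. PDIA4 in alisertib against day 7 gave 0.00 (0.0029) with at least 10 counts. With the length trend removed CALR in doxorubicin against day 0 gave 0.048, PDIA4 in doxorubicin against day 7 gave 0.021, and HSPA5 in untreated day-7 cells gave -0.0044. Without a replicate, values against day 0 ran from -0.27 to 0.14 for XBP1 in ND-646, for HSP90B1 from -0.20 to 0.036 in ND-646, -0.11 to 0.0068 in bleomycin, -0.011 to 0.11 in doxorubicin, and -0.027 to 0.079 in palbociclib, for PDIA4 from -0.20 to 0.031 in TVB-3166, -0.12 to 0.12 in doxorubicin, -0.15 to 0.071 in palbociclib, -0.093 to 0.13 in alisertib, and -0.078 to 0.15 in untreated day-7 cells, for HERPUD1 from -0.15 to 0.017 in TVB-3166, and in untreated day-7 cells from -0.021 to 0.095 for CALR and -0.034 to 0.032 for HSPA5. Against day 7 they ran from -0.028 to 0.15 for CALR and -0.37 to 0.048 for XBP1 in ND-646, from -0.043 to 0.020 for PDIA4 and -0.086 to 0.010 for HSP90B1 in doxorubicin, and from -0.042 to 0.034 for PDIA4, -0.049 to 0.029 for HSP90B1, and -0.065 to 0.16 for SDF2L1 in alisertib. Between TVB-3166 and ND-646 they ran from -0.25 to 0.033 for DNAJB9 and -0.064 to 0.12 for CALR. The causes were not tested. The lowest count of the 10 genes was 313, and the part of depth in these changes was not tested either.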
